A study of Homo sapiens with 36 samples.

Results

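The mitotic genes described here are a fixed list of 45 genes that a cell transcribes most in late S, G2 and M phase, from the cyclin B kinase that starts mitosis to the proteins that cut the daughter cells apart. Members were taken by gene symbol from a table of read counts for 15186 genes. SPC25 is not analysed here, which leaves 44 members, and all 44 passed the filter on low counts that 15179 genes passed. RNA sequencing was done in U2OS-GRα cells, a human osteosarcoma line that carries a stable GRα (glucocorticoid receptor alpha) transgene in every group. The study asked how Hic-5, encoded by TGFB1I1, acts against the chromatin remodelers CHD9 and BRM (SMARCA2) in the response to glucocorticoid. Each group received 2 siRNAs, and 48 h later the cells were given 100 nM dexamethasone (dex), a synthetic glucocorticoid, or the same volume of ethanol (vehicle) for 8 h. The siRNA pairs were siHic5siNS (Hic-5 and control), siCHD9siHic5, siBRMsiHic5, siCHD9siNS, siBRMsiNS and siNSsiNS (control siRNA in both places). Every combination of siRNA pair and treatment had 3 biological replicates from different days, 36 libraries in all.

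Entry into mitosis is driven by cyclins A and B bound to CDK1, which CDC25 phosphatases switch on and which the polo and Aurora kinases reinforce. The spindle assembly checkpoint holds the cell until every kinetochore is attached, and then the anaphase-promoting complex with its activator CDC20 destroys cyclin B and securin so that chromosomes part. Most genes of this programme are silenced in G1 by the DREAM complex and switched on in G2 by B-MYB, the MuvB core and FOXM1, largely through a promoter element named the cell cycle genes homology region (CHR), often next to CCAAT boxes bound by NF-Y. In bulk RNA their level follows both how many cells are in G2 and M and how much RNA each such cell holds, and these libraries cannot tell the 2 apart.

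Promoters show what the members share in sequence. RefSeq promoters, from 250 bases before to 50 after an annotated start in GRCh38.p14, were at hand for 37 of the 44 members, which have 49 promoters between them; AURKA, BIRC5, BUB3, FOXM1, TPX2, TTK and UBE2C had no entry. A CHR, searched as TTTGAA or TTTAAA on either strand, lay in 37 of the 49 member promoters (75.5%), against 24% of 35116 RefSeq promoters. CCAAT on either strand lay in 36 of 49 (73.5%), against 34.6% of all promoters. Both stood in the same promoter in 28 of 49 (57.1%), against 9.27% of all promoters. No member with an entry lacked both motifs. These matches describe letters in a window of 300 bases and are not bound sites. The 130 bases up to the RefSeq start are given below for 3 members with the largest falls under siHic5siNS (KIF20A, CDC20 and PLK1), for CCNB1, and for 2 members with small falls (CCNB2 and INCENP). They lie at chr5:138178982-138179111 (KIF20A), chr1:43358851-43358980 (CDC20), chr16:23678759-23678888 (PLK1), chr5:69167020-69167149 (CCNB1), chr15:59105016-59105145 (CCNB2) and chr11:62123881-62124010 (INCENP), each on the plus strand and written 5′ to 3′. Capitals mark each CHR and each CCAAT box, and a box on the other strand reads ATTGG here.
KIF20A: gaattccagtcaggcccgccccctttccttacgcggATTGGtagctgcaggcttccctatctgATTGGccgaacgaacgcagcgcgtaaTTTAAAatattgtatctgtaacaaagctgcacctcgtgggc
CDC20: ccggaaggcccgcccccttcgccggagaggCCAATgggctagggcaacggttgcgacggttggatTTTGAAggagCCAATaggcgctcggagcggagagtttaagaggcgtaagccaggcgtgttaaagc
PLK1: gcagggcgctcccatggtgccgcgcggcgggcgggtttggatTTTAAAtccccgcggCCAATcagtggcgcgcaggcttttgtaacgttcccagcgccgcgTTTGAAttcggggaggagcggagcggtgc
CCNB1: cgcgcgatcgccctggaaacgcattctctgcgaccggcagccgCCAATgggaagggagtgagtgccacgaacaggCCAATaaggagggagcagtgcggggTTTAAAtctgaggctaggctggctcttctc
CCNB2: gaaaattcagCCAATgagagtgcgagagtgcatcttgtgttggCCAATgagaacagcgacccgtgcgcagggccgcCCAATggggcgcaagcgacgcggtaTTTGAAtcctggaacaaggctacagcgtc
INCENP: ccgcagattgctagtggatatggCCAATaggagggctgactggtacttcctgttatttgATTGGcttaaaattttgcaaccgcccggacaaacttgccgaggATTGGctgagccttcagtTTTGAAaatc
Each of the 6 stretches holds a CHR and at least 1 CCAAT, in members with large and with small falls alike. GENCODE 29 places the start of the gene model within or upstream of the printed stretch for all 6.

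Libraries held between 27442282 and 47148257 counts, of which the members took 0.198% to 0.771%. Levels are given as CPM, counts scaled to a common library size with upper-quartile factors, and a change is a log2 fold change with its standard error (SE) from edgeR's quasi-likelihood test. A gene was called when its adjusted p, by Benjamini-Hochberg over all 15179 genes, was under 0.05. TGFB1I1 mRNA stood at 24.8% of its siNSsiNS level in the siHic5siNS vehicle group (log2 fold change -2.01 ± 0.24, adjusted p = 1.47e-07), at 26.2% in siCHD9siHic5 and at 18.3% in siBRMsiHic5. SMARCA2 mRNA stood at 28.9% in siBRMsiNS and 24.9% in siBRMsiHic5. CHD9 mRNA stood at 67.9% in the libraries labelled siCHD9siNS with vehicle (adjusted p = 0.0194) and at 85.5% with dex (adjusted p = 0.411). It stood at 139% in those labelled siCHD9siHic5 with vehicle (adjusted p = 0.0292), against the label, and at 51.1% in siBRMsiHic5 with vehicle (adjusted p = 0.000107), where no CHD9 siRNA was given. So groups are called by their labels and no result is given as an effect of CHD9 loss. RNA28S5, a ribosomal RNA gene, took 1.92% to 7.51% of the counts in 11 libraries (all siBRMsiNS and siBRMsiHic5 libraries of replicates 2 and 3, the siHic5siNS libraries of replicate 3, and siNSsiNS vehicle replicate 3) and at most 0.959% in the other 25. Of 7 mesenchymal and bone line markers, 5 were among the tested genes: over the 36 libraries VIM ran from 991 to 2106 CPM, SPARC from 1187 to 3132, FN1 from 566 to 7118, CDH2 from 94.7 to 382 and RUNX2 from 13.0 to 63.7, while COL1A2 and TWIST1 were not tested. FN1 averaged 5574 CPM in siHic5siNS with vehicle and 886 CPM in siNSsiNS. Of 4 epithelial markers EPCAM reached at most 4.84 CPM and CDH1 1.90 CPM, and both endothelial markers were low (PECAM1 at most 4.31 CPM, CDH5 at most 1.82 CPM); KRT19, ESRP1 and the 4 haematopoietic markers were not among the tested genes.

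The members span a wide range of levels in cells with control siRNA. Per kilobase of exon, TOP2A, the topoisomerase that untangles sister chromatids (chr17:40388516-40417950), led with 128 CPM per kb in the siNSsiNS vehicle group. CCNB1, cyclin B1 (chr5:69167010-69178245), followed with 126 CPM per kb, and CDC20, the activator of the anaphase-promoting complex (chr1:43358955-43363203), with 116. The lowest were CDC25C, a CDK1-activating phosphatase, with 7.05 CPM per kb, and SPC24, an outer kinetochore subunit, with 2.44. For 8 members an exon overlaps a gene on the opposite strand that is also in the table (ANLN, CCNA2, CDC25C, FOXM1, KIF20A, KIF4A, NUF2 and SPC24), and KIF4A has a retrocopy, KIF4B. Since use of strand in counting is not stated, reads of these members could be shared with those genes. On the same strand, CENPA shares 138 exon bases with SLC35F6, which is in the table. BUB1B (457 bases), NUSAP1 (1787) and PRC1 (3181) overlap same-strand genes that are not in the table. Use of strand would not part such reads.

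With siHic5siNS and vehicle the mitotic genes fell almost as a block. Of the 44 members 43 were called lower and 0 higher than in siNSsiNS, where 27.2% of all tested genes were called lower and 26.0% higher. The median member stood at 38.0% of its siNSsiNS level (log2 fold change -1.40), while the median of all tested genes was -0.01. In all 44 members the 3 siHic5siNS libraries lay below the 3 siNSsiNS libraries, a separation that 31.6% of all genes showed in this direction. Summed over the 44 members, the level was 2637 ± 425 CPM in siHic5siNS and 6609 ± 369 CPM in siNSsiNS (SD, n = 3 each). Leaving out each library in turn kept 39 to 43 members called lower, and 42 were called lower without the 11 libraries rich in RNA28S5.

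**Figure D1:**
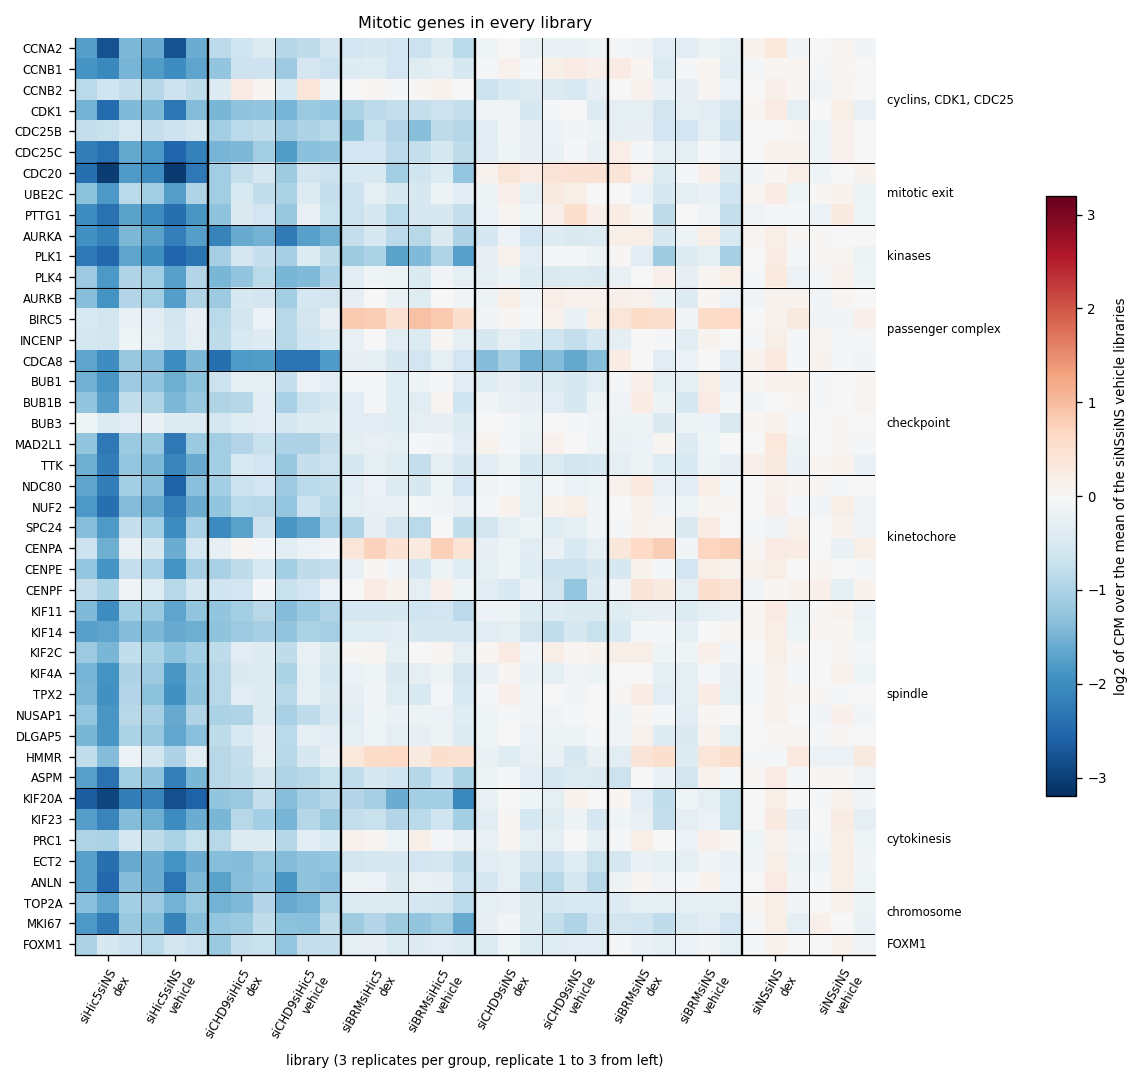
Level of the 44 mitotic genes (down the page, grouped by role) in all 36 libraries (across, dex left of vehicle in each siRNA pair), as log2 of CPM over the mean of the 3 siNSsiNS vehicle libraries; blue is lower and red is higher. The 6 siHic5siNS columns are blue in nearly every row, the siCHD9siHic5 columns are blue with gaps at CCNB2 and CENPA, and the siBRMsiHic5 columns are pale with BIRC5 red.

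The cyclin and CDK1 genes, which carry the cell into mitosis, all fell (6 of 6 called, median log2 fold change -1.74). CCNB1 had 79.2, 68.4 and 85.3 CPM in the siHic5siNS replicates 1 to 3, against 260.5, 287 and 271 CPM in siNSsiNS. Its libraries did not overlap, and the log2 fold change was -1.81 ± 0.17 (SE, adjusted p = 4.01e-09). CDK1, the kinase itself, had 79.6, 44.0 and 82.4 CPM in siHic5siNS and 218, 249 and 185 CPM in siNSsiNS, and fell by 1.66 ± 0.21 on the log2 scale (SE, adjusted p = 4.11e-07). Replicate 2 was the lowest siHic5siNS library here, as it was in the summed level of the members (2147 CPM, against 2895 and 2869 CPM in replicates 1 and 3). The same library kept the most TGFB1I1 (5.27, 11.2 and 4.74 CPM in replicates 1 to 3). CDC25C fell to 22.6% of its siNSsiNS level, with 5.08, 3.13 and 4.07 CPM in siHic5siNS and 16.6, 19.9 and 17.8 CPM in siNSsiNS (log2 fold change -2.15, adjusted p = 7.36e-10). CCNA2, cyclin A2, fell to a mean of 29.6 CPM in siHic5siNS, against 110.2 CPM in siNSsiNS. CCNB2, the second B-type cyclin, and CDC25B, another CDC25 phosphatase, moved least of the 6. CCNB2 had 33.4, 40.3 and 36.2 CPM in siHic5siNS and 58.8, 66.9 and 64.1 CPM in siNSsiNS (log2 fold change -0.79), and CDC25B had a log2 fold change of -0.64.

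Genes of mitotic exit had the lowest median of the roles (3 of 3 called lower, median log2 fold change -2.08). CDC20 had 52.3, 25.4 and 43.4 CPM in siHic5siNS replicates 1 to 3, against 191, 213 and 231 CPM in siNSsiNS. The means were 40.4 ± 13.7 CPM in siHic5siNS and 212 ± 19.9 CPM in siNSsiNS (SD, n = 3 each), a log2 fold change of -2.39 ± 0.28 (SE, adjusted p = 7.42e-08). The highest siHic5siNS library was thus far below the lowest siNSsiNS library. PTTG1, which encodes securin, the guard of the cohesin-cutting protease, had 26.9, 20.1 and 29.5 CPM in siHic5siNS and 95.0, 131 and 97.7 CPM in siNSsiNS (log2 fold change -2.08, adjusted p = 2.42e-07). UBE2C, the ubiquitin-conjugating enzyme of the anaphase-promoting complex, had a smaller log2 fold change of -1.24 (adjusted p = 2.68e-05).

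All 3 kinases were called lower (median log2 fold change -1.88). PLK1, polo-like kinase 1, had 31.2, 21.0 and 24.1 CPM in siHic5siNS and 126, 131 and 110.4 CPM in siNSsiNS, so that every siHic5siNS library was far under every siNSsiNS library. Its log2 fold change was -2.27 ± 0.27 (SE, adjusted p = 1.21e-07). AURKA, the Aurora kinase of centrosomes and spindle poles, had 44.8, 32.6 and 43.2 CPM in siHic5siNS and 151, 146 and 147 CPM in siNSsiNS, and fell by 1.88 ± 0.21 on the log2 scale (SE, adjusted p = 6.11e-08). PLK4, which starts centriole duplication, had a log2 fold change of -1.22 (adjusted p = 1.52e-05).

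The chromosomal passenger complex, which places Aurora B at centromeres and later at the midzone, was uneven (3 of 4 called lower, median log2 fold change -0.81). CDCA8, the borealin subunit, had 32.9, 21.8 and 31.8 CPM in siHic5siNS and 93.6, 84.6 and 82.0 CPM in siNSsiNS (log2 fold change -1.59, adjusted p = 3.65e-07). AURKB, the kinase of the complex, had a log2 fold change of -1.23 (adjusted p = 1.81e-05). INCENP, the scaffold, had 50.6, 41.9 and 50.9 CPM in siHic5siNS and 66.0, 59.1 and 60.5 CPM in siNSsiNS, and its log2 fold change was -0.37 (adjusted p = 0.0333). INCENP was not called without siHic5siNS replicate 2 (-0.29), siNSsiNS replicate 1 (-0.32) or siNSsiNS replicate 3 (-0.39). BIRC5, the survivin subunit, was the 1 member not called. It had 82.0, 69.2 and 87.2 CPM in siHic5siNS and 97.5, 98.4 and 116 CPM in siNSsiNS, and the log2 fold change of -0.39 ± 0.18 had an adjusted p of 0.0691.

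All 5 checkpoint genes were called lower (median log2 fold change -1.38), yet they spread widely. TTK, the kinase that starts checkpoint signalling, had a log2 fold change of -1.69, and MAD2L1, the CDC20 inhibitor, and the kinase BUB1 had -1.48 and -1.38. BUB3, which carries BUB1 and BUBR1 to kinetochores, had 244, 212 and 214 CPM in siHic5siNS and 284, 289 and 279 CPM in siNSsiNS. The groups did not overlap, but the log2 fold change was -0.35 ± 0.09 (SE, adjusted p = 0.00293), the smallest of the 44. Kinetochore and centromere genes fell in 6 of 6 (median log2 fold change -1.29). NUF2, a subunit of the NDC80 complex that grips microtubules, had 22.9, 15.3 and 23.3 CPM in siHic5siNS and 65.9, 79.5 and 64.9 CPM in siNSsiNS (log2 fold change -1.77). CENPA, the centromeric histone H3, had 17.9, 8.54 and 17.5 CPM in siHic5siNS and 25.4, 22.3 and 29.4 CPM in siNSsiNS (log2 fold change -0.81), and CENPF, a large outer kinetochore protein, had a log2 fold change of -0.59 (adjusted p = 0.0327). CENPA was not called without siHic5siNS replicate 2 (-0.54, adjusted p = 0.0726). CENPF was not called without siHic5siNS replicate 2 (-0.47) or 3 (-0.62) or siNSsiNS replicate 1 (-0.51) or 3 (-0.53).

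The spindle motors and microtubule proteins were called lower in 9 of 9 (median log2 fold change -1.39). They ran from ASPM, a spindle pole protein, with a log2 fold change of -1.59, to HMMR, a microtubule-binding hyaluronan receptor, with -0.62 (adjusted p = 0.0437). HMMR was not called without siHic5siNS replicate 1 (-0.63) or 2 (-0.46) or siNSsiNS replicate 3 (-0.44). Cytokinesis genes fell in 5 of 5 (median log2 fold change -1.70) and included the member with the largest change. KIF20A, the kinesin that carries the passenger complex to the midzone, had 26.6, 16.6 and 19.4 CPM in siHic5siNS and 113, 125 and 109.7 CPM in siNSsiNS. That was 18% of the siNSsiNS level, a log2 fold change of -2.47 ± 0.25 (SE, adjusted p = 9.06e-09). ANLN, anillin of the contractile ring, had 157, 95.2 and 174 CPM in siHic5siNS and 451, 538 and 431 CPM in siNSsiNS (log2 fold change -1.74). PRC1, the bundler of midzone microtubules, moved least of the 5 (log2 fold change -0.83). Both chromosome proteins were called lower. TOP2A had 328, 260.1 and 325 CPM in siHic5siNS and 746, 805 and 658 CPM in siNSsiNS, and its log2 fold change was -1.28 ± 0.15 (SE, adjusted p = 1.13e-07). MKI67, the Ki-67 protein that coats mitotic chromosomes, had 216, 126 and 214 CPM in siHic5siNS and 621, 561 and 479 CPM in siNSsiNS (log2 fold change -1.58, adjusted p = 9.15e-07). FOXM1, the transcription factor of G2 and M genes, was called lower with a smaller change, with 108, 130 and 122 CPM in siHic5siNS and 197, 209 and 179 CPM in siNSsiNS (log2 fold change -0.70, adjusted p = 7.18e-05).

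**Figure D2:**
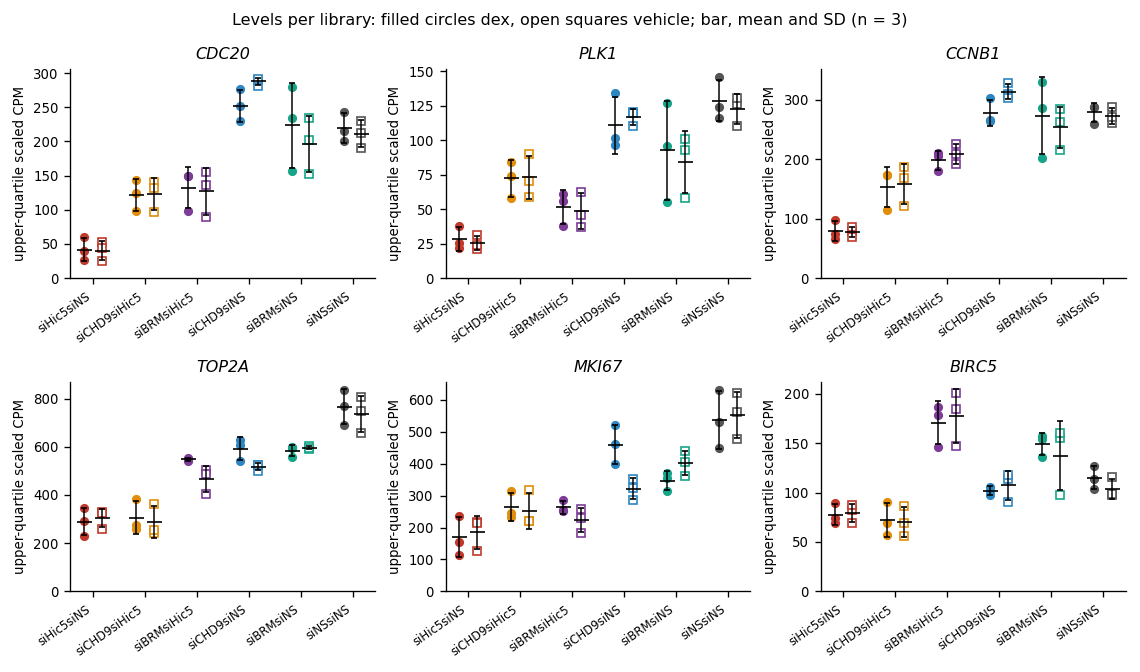
Upper-quartile scaled CPM of CDC20, PLK1, CCNB1, TOP2A, MKI67 and BIRC5 in each library, with siRNA pairs across (siHic5siNS at the left, siNSsiNS at the right), filled circles for dex, open squares for vehicle, and bars for the mean and SD (n = 3). The siHic5siNS points of CDC20 lie at 52.3, 25.4 and 43.4 CPM with vehicle, under all other groups, whereas BIRC5 has its highest mean in siBRMsiHic5.

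The same comparison in dex-treated cells gave 44 of 44 members called lower, against 28.5% of all tested genes called lower and 25.2% higher. The median log2 fold change was -1.49 and the range -2.64 to -0.34. KIF20A again had the largest change, with 18.6, 15.1 and 25.1 CPM in siHic5siNS and 116, 134 and 117 CPM in siNSsiNS (log2 fold change -2.64 ± 0.25, SE, adjusted p = 2.93e-09). CDC20 had 39.8, 25.8 and 59.8 CPM in siHic5siNS and 201, 216 and 244 CPM in siNSsiNS. BIRC5, not called with vehicle, was called here with a log2 fold change of -0.57 (adjusted p = 0.00911). PLK1 (-2.19), CDC25C (-2.13), CCNA2 (-2.02), PTTG1 (-1.93), AURKA (-1.93) and ANLN (-1.88) completed the 8 largest log2 fold changes with dex. CCNB1 (-1.82), CDK1 (-1.74), MKI67 (-1.67), TOP2A (-1.40), FOXM1 (-0.73) and BUB3 (-0.34) fell too. No member's log2 fold change differed by more than 0.21 between dex and vehicle.

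When siCHD9 was given together with siHic5, the mitotic genes were still low, but less so. In siCHD9siHic5 with vehicle, 40 of 44 members were called lower than in siNSsiNS and 0 higher (28.9% and 23.7% of all tested genes), with a median log2 fold change of -0.82, or 56.7% of the siNSsiNS level. The summed level was 3495 ± 533 CPM, against 6609 ± 369 CPM in siNSsiNS (SD, n = 3 each). CDCA8 had the largest change, with 16.8, 16.8 and 24.8 CPM in siCHD9siHic5 and 93.6, 84.6 and 82.0 CPM in siNSsiNS (log2 fold change -2.15 ± 0.21, SE, adjusted p = 3.14e-09). AURKA followed, with 31.3, 43.9 and 51.2 CPM in siCHD9siHic5 and 151, 146 and 147 CPM in siNSsiNS (log2 fold change -1.81, adjusted p = 8.34e-08). ANLN (-1.48), SPC24 (-1.47), CDC25C (-1.45), TOP2A (-1.36), ECT2, the activator of RhoA at the cleavage furrow (-1.30), and CDK1 (-1.30) completed the 8 largest log2 fold changes. CCNB1 fell to 58.2% of the siNSsiNS level (log2 fold change -0.78, adjusted p = 0.000353), MKI67 had a log2 fold change of -1.13, FOXM1 -0.90 and BUB3 -0.46. PLK1 and BIRC5 rested on replicate 1. PLK1 had a log2 fold change of -0.75 (adjusted p = 0.0163), and -0.61 (adjusted p = 0.0842) without that library, and BIRC5 had -0.56 (adjusted p = 0.00999), and -0.42 (adjusted p = 0.0776) without it. The members not called were CCNB2, CENPA, CENPF and HMMR. CCNB2 had 45.2, 82.1 and 58.7 CPM in siCHD9siHic5 and 58.8, 66.9 and 64.1 CPM in siNSsiNS, and these groups overlapped (log2 fold change -0.03, adjusted p = 0.888). Same-numbered libraries of these groups deviated together, and with a term for the replicate number HMMR (adjusted p = 0.0243) and CENPF (adjusted p = 0.0397) were called lower as well, giving 42. With dex, 41 of 44 members were called lower than in siNSsiNS and 0 higher (29.2% of all tested genes lower), with a median log2 fold change of -0.84 and again CDCA8 (-2.12) and AURKA (-1.84) in front. ANLN (-1.49), CDC25C (-1.41), CDK1 (-1.36), SPC24 (-1.34), TOP2A (-1.32) and ECT2 (-1.28) followed, and MKI67 (-1.02), FOXM1 (-0.90), CCNB1 (-0.86), PLK1 (-0.83), BIRC5 (-0.67) and BUB3 (-0.48) were called lower too, PLK1 not without siCHD9siHic5 replicate 1 (-0.70, adjusted p = 0.0503).

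With siBRM and siHic5 together, fewer members were called against siNSsiNS. With vehicle 20 of 44 were called lower and 1 higher (24.6% and 24.4% of all tested genes), and the median log2 fold change was -0.38, or 76.6% of the siNSsiNS level. The summed level was 4704 ± 520 CPM in siBRMsiHic5 and 6609 ± 369 CPM in siNSsiNS (SD, n = 3 each). KIF20A had 54.5, 54.1 and 27.7 CPM in siBRMsiHic5 and 113, 125 and 109.7 CPM in siNSsiNS (log2 fold change -1.35 ± 0.24, SE, adjusted p = 5.27e-05). PLK1 had 46.0, 62.7 and 36.9 CPM in siBRMsiHic5 and 126, 131 and 110.4 CPM in siNSsiNS (log2 fold change -1.34, adjusted p = 0.000152). MKI67 had 231, 257 and 182 CPM in siBRMsiHic5 and 621, 561 and 479 CPM in siNSsiNS (log2 fold change -1.31, adjusted p = 1.86e-05). In all of these genes the siBRMsiHic5 libraries stayed below every siNSsiNS library, with replicate 3 the lowest. CDC25B also fell, with a log2 fold change of -1.02 (adjusted p = 2.77e-06), and so did KIF23, a kinesin of the central spindle (-0.85), ASPM (-0.85), AURKA (-0.75), CDK1 (-0.74), TOP2A (-0.66), FOXM1 (-0.40) and BUB3 (-0.32). CCNB1 was not called (-0.39, adjusted p = 0.0579), and none of the 6 kinetochore genes was. BIRC5 went the other way and was the 1 member called higher, with 200.3, 184 and 147 CPM in siBRMsiHic5 and 97.5, 98.4 and 116 CPM in siNSsiNS, a log2 fold change of 0.77 ± 0.18 (SE, adjusted p = 0.000895). With dex 22 of 44 members were called lower and 1 higher (23.1% and 22.4% of all tested genes), and BIRC5 was again the higher one (log2 fold change 0.57, adjusted p = 0.0106). PLK1 (-1.33), KIF20A (-1.25), MKI67 (-1.03), CDC25B (-0.97), CDK1 (-0.88), AURKA (-0.81), KIF23 (-0.81) and CDC25C (-0.76) had the largest falls with dex, and CCNB1 (-0.49), TOP2A (-0.48), BUB3 (-0.40) and FOXM1 (-0.35) were called too. Leaving out the 11 libraries rich in RNA28S5 left 1 siBRMsiHic5 library in each treatment, assumed to vary like the other groups. Fewer members were called lower in that fit, but no count is given, since the group had no replicates there. CDK1, TOP2A, FOXM1 and BUB3 with vehicle and CCNB1, TOP2A and FOXM1 with dex were not called in that fit. Without siNSsiNS replicate 2, the dex comparison gave 12 lower and 1 higher, without CCNB1 (-0.47), TOP2A (-0.41) and FOXM1 (-0.31), and FOXM1 was not called with vehicle (-0.35). With dex CCNB1 was also not called without siBRMsiHic5 replicate 3 (-0.43), nor FOXM1 without siBRMsiHic5 replicate 1 (-0.37) or 3 (-0.30), and without siNSsiNS replicate 1 BIRC5 was not called with dex (0.50).

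**Figure D3:**
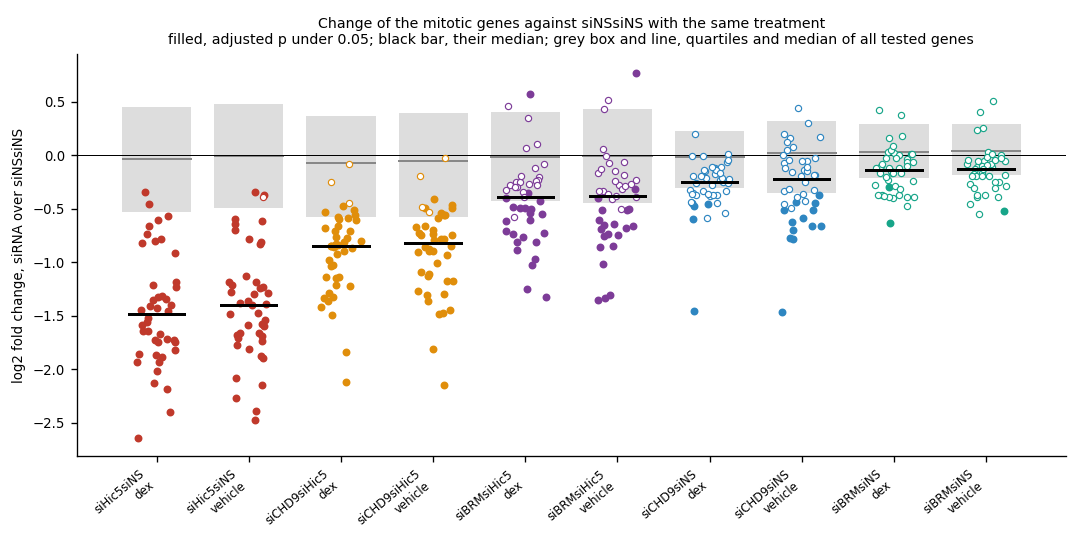
Log2 fold change of each mitotic gene over siNSsiNS with the same treatment (points; filled where the adjusted p was under 0.05), for each siRNA pair with dex and with vehicle, with the members' median as a black bar and the quartiles and median of all tested genes as a grey box and line. The siHic5siNS and siCHD9siHic5 medians lie at -1.40 and -0.82 with vehicle, and the siBRMsiHic5 median at -0.38.

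Set directly against siHic5siNS, both double siRNA groups had higher levels of many members; these comparisons use the same siHic5siNS libraries as the one against siNSsiNS. In siBRMsiHic5 with vehicle, 38 of 44 members were called higher and 1 lower than in siHic5siNS (25.2% and 24.2% of all tested genes), with a median of 206% of the siHic5siNS level (log2 fold change 1.04). CDC20 had 137, 155 and 89.0 CPM in siBRMsiHic5 and 52.3, 25.4 and 43.4 CPM in siHic5siNS (log2 fold change 1.65 ± 0.27, SE, adjusted p = 1.3e-05). NUF2 had 67.9, 64.9 and 59.7 CPM in siBRMsiHic5 and 22.9, 15.3 and 23.3 CPM in siHic5siNS (log2 fold change 1.65 ± 0.18, SE, adjusted p = 5.25e-08). CCNB1 had 209, 225 and 192 CPM in siBRMsiHic5 and 79.2, 68.4 and 85.3 CPM in siHic5siNS (log2 fold change 1.43, adjusted p = 1.76e-07). In these genes no siBRMsiHic5 library was as low as any siHic5siNS library. PTTG1 (1.47), CDC25C (1.46), ANLN (1.36), CENPA (1.33) and MAD2L1 (1.31) were, with CDC20, NUF2 and CCNB1, the 8 largest rises on the log2 scale. CDK1 (0.92), PLK1 (0.93), AURKA (1.12), BIRC5 (1.16) and TOP2A (0.61) rose as well. CDC25B was the 1 member called lower (-0.37, adjusted p = 0.0297), but not without siBRMsiHic5 replicate 1 (-0.22) or siHic5siNS replicate 2 (-0.37) or 3 (-0.32). MKI67 had 231, 257 and 182 CPM in siBRMsiHic5 and 216, 126 and 214 CPM in siHic5siNS, groups that overlapped, with a log2 fold change of 0.27 (adjusted p = 0.298). FOXM1 (0.30, adjusted p = 0.06), BUB3 (0.03, adjusted p = 0.835), INCENP (0.14, adjusted p = 0.441) and CENPF (0.52, adjusted p = 0.0626) were not called either.

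In siCHD9siHic5 with vehicle, 24 of 44 members were called higher and 2 lower than in siHic5siNS (21.9% and 25.7% of all tested genes), with a median log2 fold change of 0.48. The genes of mitotic exit were called higher in 3 of 3, UBE2C with overlapping groups (log2 fold change 0.55, adjusted p = 0.0363). CDC20 had 97.0, 141 and 131 CPM in siCHD9siHic5 and 52.3, 25.4 and 43.4 CPM in siHic5siNS (log2 fold change 1.61 ± 0.27, SE, adjusted p = 1.73e-05). PLK1 had 58.8, 90.1 and 70.2 CPM in siCHD9siHic5 and 31.2, 21.0 and 24.1 CPM in siHic5siNS (log2 fold change 1.52 ± 0.26, SE, adjusted p = 2.83e-05). CCNB1 had 122, 187 and 168 CPM in siCHD9siHic5 and 79.2, 68.4 and 85.3 CPM in siHic5siNS (log2 fold change 1.03, adjusted p = 1.53e-05). In CDC20, PLK1 and CCNB1 the groups did not overlap. PTTG1 (1.41), KIF20A (1.38), CCNA2 (1.15), BUB1 (0.97) and the spindle assembly factor TPX2 (0.94) were, with CDC20, PLK1 and CCNB1, the 8 largest rises on the log2 scale. AURKA was not called, with 31.3, 43.9 and 51.2 CPM in siCHD9siHic5 and 44.8, 32.6 and 43.2 CPM in siHic5siNS (log2 fold change 0.07, adjusted p = 0.803). TOP2A (-0.08), CDK1 (0.36), MKI67 (0.45), BIRC5 (-0.17), FOXM1 (-0.20) and BUB3 (-0.12) were not called. CDCA8 and CDC25B were called lower. CDCA8 had 16.8, 16.8 and 24.8 CPM in siCHD9siHic5 and 32.9, 21.8 and 31.8 CPM in siHic5siNS (log2 fold change -0.56, adjusted p = 0.0219), and CDC25B had -0.36 (adjusted p = 0.0345). Both calls were fragile. CDCA8 was not called without siCHD9siHic5 replicate 1 (-0.47) or 2 (-0.47) or siHic5siNS replicate 1 (-0.46) or 3 (-0.49), and CDC25B was not called without siCHD9siHic5 replicate 1 (-0.29) or 2 (-0.37) or siHic5siNS replicate 2 (-0.37) or 3 (-0.31), with TMM factors or by DESeq2. Leaving out siHic5siNS replicate 2, the library with the lowest levels, gave 16 members higher and 1 lower.

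**Figure D4:**
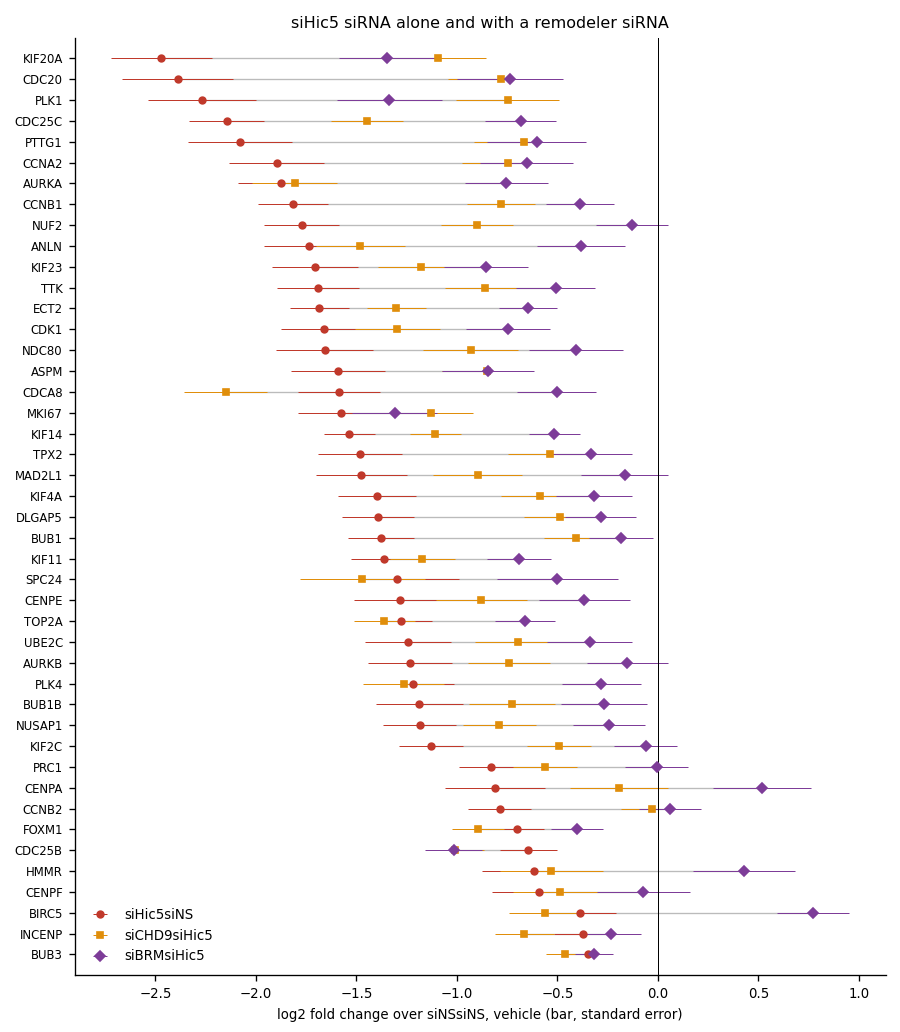
Log2 fold change over siNSsiNS with vehicle (bars, SE) for each mitotic gene in siHic5siNS (red circles), siCHD9siHic5 (orange squares) and siBRMsiHic5 (purple diamonds), ordered by the siHic5siNS change. CDC20 lies at -2.39 with siHic5siNS, -0.78 with siCHD9siHic5 and -0.74 with siBRMsiHic5, while CDCA8 is lowest with siCHD9siHic5.

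The change that siHic5 made in the presence of a remodeler siRNA was also tested against the change that it made alone, a comparison chosen after the data were seen. With siBRM, the siHic5 change (siBRMsiHic5 over siBRMsiNS) differed from the change alone (siHic5siNS over siNSsiNS) in 34 of 44 members, all toward higher values (9.68% of all tested genes higher, 11.3% lower), with a median difference in log2 fold change of 1.23. CDC20 (1.76 ± 0.37, SE, adjusted p = 0.00141), PTTG1 (1.73), CDC25C (1.65), NUF2 (1.64), CCNB1 (1.53, adjusted p = 7.06e-05), CCNA2 (1.499), KIF20A (1.49) and MAD2L1 (1.49) had the largest differences. CDK1 (1.31), PLK1 (1.48), AURKA (1.26), TOP2A (0.92) and BIRC5 (0.75, adjusted p = 0.0326) were called, although BIRC5 was not without siBRMsiHic5 replicate 1 (0.66) or 2 (0.73), siBRMsiNS replicate 1 (0.56), siHic5siNS replicate 2 (0.66) or siNSsiNS replicate 3 (0.67), and CDK1 was not without the 11 libraries rich in RNA28S5, a fit with 1 siBRMsiHic5 and 1 siBRMsiNS library, assumed to vary like the other groups. MKI67 (0.73, adjusted p = 0.0792), FOXM1 (0.50, adjusted p = 0.0553) and BUB3 (0.30, adjusted p = 0.109) were not called. With siCHD9, 23 members differed, all toward higher values (9.34% of all tested genes higher, 11.9% lower), with a median difference of 0.84. PLK1 (1.59 ± 0.37, SE, adjusted p = 0.00268), KIF20A (1.43), BUB1 (1.41, adjusted p = 8.1e-05), TTK (1.34), CCNA2 (1.34), ASPM (1.23) and MKI67 (1.23, adjusted p = 0.00402) had the largest differences in log2 fold change. CDC20 (1.16, adjusted p = 0.0249) and CCNB1 (0.83, adjusted p = 0.0133) were called, and AURKA (0.50), CDK1 (0.50), TOP2A (0.43), BIRC5 (-0.22), FOXM1 (0.17) and BUB3 (-0.06) were not. Without siHic5siNS replicate 2 the count with siCHD9 was 13, and CDC20 was not called without that library (0.92), siCHD9siHic5 replicate 2 (1.06) or siCHD9siNS replicate 1 (1.15).

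Given with control siRNA, siCHD9 went with lower levels of a minority of the members, and siBRM with almost none. The counts for siCHD9siNS with dex and for siBRMsiNS in both treatments stood near the share of all tested genes called lower. In siCHD9siNS with vehicle, 13 of 44 members were called lower than in siNSsiNS and 0 higher, against 16.5% and 15.8% of all tested genes, with a median log2 fold change of -0.22. CDCA8 stood apart, with 33.0, 27.6 and 33.7 CPM in siCHD9siNS and 93.6, 84.6 and 82.0 CPM in siNSsiNS (log2 fold change -1.46 ± 0.20, SE, adjusted p = 6e-06). MKI67 had 325, 286 and 352 CPM in siCHD9siNS and 621, 561 and 479 CPM in siNSsiNS (log2 fold change -0.79, adjusted p = 0.00534). ANLN had a log2 fold change of -0.78, CENPF -0.70 (adjusted p = 0.0216), KIF14, a kinesin of the midbody, -0.66, INCENP -0.66, CENPE, the kinetochore kinesin, -0.62 and ECT2 -0.58. TOP2A (-0.51, adjusted p = 0.00977) and FOXM1 (-0.37, adjusted p = 0.0304) were called too. CCNB1 (0.20), CDK1 (-0.14), PLK1 (-0.07), AURKA (-0.43), BIRC5 (0.05) and BUB3 (-0.05) were not. CDC20 had 282, 290.1 and 291 CPM in siCHD9siNS and 191, 213 and 231 CPM in siNSsiNS, and was not called either (log2 fold change 0.44 ± 0.26, SE, adjusted p = 0.197). CENPE was not called whichever of the 6 libraries was left out (-0.67 to -0.59), and FOXM1 was called only when the library left out was siNSsiNS replicate 3 (-0.38 to -0.32 without the others). CENPF was not called without siCHD9siNS replicate 2 (-0.49) or siNSsiNS replicate 1 (-0.62) or 3 (-0.64), nor TOP2A without siNSsiNS replicate 2 (-0.44). With dex 5 members were called lower and 0 higher (10.7% and 7.96% of all tested genes). They were CDCA8 (-1.46, adjusted p = 1.07e-05), CCNB2 (-0.60), INCENP (-0.47), BUB1 (-0.45) and KIF14 (-0.45). Of the other members followed throughout, AURKA (-0.54), TOP2A (-0.37), FOXM1 (-0.36), CDK1 (-0.26), MKI67 (-0.22), PLK1 (-0.22), BIRC5 (-0.17) and BUB3 (-0.12) were not called, nor was CCNB1 (-0.00382). Same-numbered siCHD9siNS and siNSsiNS libraries deviated together, and with a term for the replicate number AURKA (-0.55, adjusted p = 0.0499) and FOXM1 (-0.36, adjusted p = 0.021) were called lower as well with dex, giving 7, and CCNB2 (adjusted p = 0.0138) with vehicle, giving 14. The vehicle count was 7 without siNSsiNS replicate 1 or 2 or siCHD9siNS replicate 2, and 8 without siCHD9siNS replicate 1 or 3; the dex count was 2 without siNSsiNS replicate 2 or siCHD9siNS replicate 1 or 3. With dex, BUB1 was not called whichever of the 6 libraries was left out (-0.50 to -0.43), CCNB2 without siCHD9siNS replicate 1 (-0.52), INCENP without siCHD9siNS replicate 1 (-0.44) or 3 (-0.45) or siNSsiNS replicate 2 (-0.39), and KIF14 without siCHD9siNS replicate 3 (-0.36) or siNSsiNS replicate 2 (-0.36).

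In siBRMsiNS with vehicle the 1 member called was CDC25B (2.19% of all tested genes were called lower and 4.26% higher). CDC25B had 84.1, 105 and 82.1 CPM in siBRMsiNS and 118, 143 and 127 CPM in siNSsiNS (log2 fold change -0.52 ± 0.14, SE, adjusted p = 0.0305), and 7 members had an unadjusted p under 0.05. The median log2 fold change was -0.13, with CCNB1 at -0.11, CDK1 at -0.39, PLK1 at -0.54, AURKA at -0.13, BIRC5 at 0.40, FOXM1 at -0.20, TOP2A at -0.30, MKI67 at -0.46 and BUB3 at -0.27, none of them called. With dex, MKI67 (-0.63, adjusted p = 0.0482) and BUB3 (-0.30, adjusted p = 0.0401) were called lower and 0 members higher (4.77% and 7.06% of all tested genes), and PLK1 (-0.48), CDK1 (-0.40), TOP2A (-0.39), FOXM1 (-0.20), AURKA (-0.12), CCNB1 (-0.03) and BIRC5 (0.38) were not called. Without siBRMsiNS replicate 3 or siNSsiNS replicate 1 or 2, 0 members were called in either treatment, and CDC25B had log2 fold changes of -0.45, -0.58 and -0.44 with vehicle. Without siBRMsiNS replicate 1 there were 4 with vehicle (2 higher, 2 lower) and 1 with dex, and without siBRMsiNS replicate 2 there was 1 with dex. Leaving out the 11 libraries rich in RNA28S5 left 1 siBRMsiNS library in each treatment, assumed to vary like the other groups. In that fit CDC25B with vehicle and MKI67 and BUB3 with dex were not called.

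After 8 h, few mitotic genes were called between dex and vehicle, all of them in a fit that paired the libraries. Taken over both directions, their counts in that fit stood near or under the share of all tested genes. Without pairing, 0 members in each of the 6 siRNA pairs were called between dex and vehicle, by edgeR and by DESeq2. Few genes of any kind were called by edgeR: 0.725% of all tested genes were higher and 0.152% lower in siHic5siNS, 0.428% and 0.0264% in siCHD9siHic5, 0.494% and 0.00659% in siBRMsiHic5, 0.929% and 0.0198% in siCHD9siNS, 0.382% and 0.0% in siBRMsiNS, and 0.343% and 0.0% in siNSsiNS. At an unadjusted p under 0.05 edgeR gave 2 members in siCHD9siNS and 0 in the other siRNA pairs. The members' median log2 fold change lay between -0.01 and 0.07. Of the 9 members followed throughout, MKI67 had the widest range, with log2 fold changes of -0.13 in siHic5siNS, 0.06 in siCHD9siHic5, 0.24 in siBRMsiHic5, 0.52 in siCHD9siNS, -0.22 in siBRMsiNS and -0.04 in siNSsiNS, and the other 8 lay between -0.17 (CCNB1 in siCHD9siNS) and 0.23 (TOP2A in siBRMsiHic5). In siNSsiNS, the summed level was 6824 ± 555 CPM with dex and 6609 ± 369 CPM with vehicle (SD, n = 3 each). In siHic5siNS it was 2598 ± 612 CPM with dex and 2637 ± 425 CPM with vehicle. The difference of the dex response from that in siNSsiNS was called for 0 members in all 5 other siRNA pairs, with 0 at an unadjusted p under 0.05 and 0 by DESeq2 (0.0% of all tested genes higher, at most 0.00659% lower). Dex and vehicle libraries of the same replicate number deviated together, and a fit with a term for each such pair had a smaller spread. With those terms 7 members were called higher and 2 lower in siCHD9siNS (11.1% and 13.0% of all tested genes). MKI67 was among them, with 461, 520.1 and 399.6 CPM with dex and 325, 286 and 352 CPM with vehicle, higher in every pair (log2 fold change 0.52 ± 0.11, SE, adjusted p = 0.00313), and PTTG1 was called lower (-0.37 ± 0.08, SE, adjusted p = 0.00283). TOP2A had a log2 fold change of 0.19 (adjusted p = 0.0225). With the pair terms 2 members were called higher in siBRMsiHic5 (4.18% of all tested genes higher, 1.77% lower), CENPE (0.29, adjusted p = 0.0474) and TOP2A (0.24, adjusted p = 0.019), and 0 in the other 4 siRNA pairs. There, all tested genes were called higher and lower at 4.36% and 4.57% in siHic5siNS, 3.23% and 1.52% in siCHD9siHic5, 2.38% and 1.53% in siBRMsiNS, and 1.87% and 0.626% in siNSsiNS. An unadjusted p under 0.05 was reached by 1 member in siHic5siNS, 3 in siBRMsiNS, 0 in siCHD9siHic5 and 0 in siNSsiNS. The response of MKI67 in siCHD9siNS also differed from that in siNSsiNS in the paired fit, the 1 member of 44 to do so (2.18% of all tested genes higher, 1.85% lower), by 0.56 ± 0.16 on the log2 scale (SE, adjusted p = 0.0499).

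Other cell cycle genes, listed apart from the members but likewise with earlier results of these data known, were set beside them. Of 47 other G2 and M genes, 45 were called lower and 0 higher in siHic5siNS with vehicle than in siNSsiNS (median log2 fold change -1.18). Of all tested genes, 27.2% were called lower and 26.0% higher there. SPAG5, a spindle protein (-1.82, adjusted p = 2.18e-09), and KIF22, a chromosome arm kinesin (-1.57), had the smallest p, followed by RACGAP1 of the central spindle (-1.39) and the centrosomal kinase NEK2 (-1.94). In the same list 37 were called lower in siCHD9siHic5 (28.9% of all tested genes). In siBRMsiHic5, 25 were called lower and 1 higher (24.6% and 24.4% of all tested genes). With control siRNA, 5 were lower in siCHD9siNS (16.5% of all tested genes) and 1 in siBRMsiNS (2.19%). The 5 of 47 stand under the share of all genes, and the 1 of 47 near it. Of 45 S phase genes, 33 were called lower and 0 higher in siHic5siNS, against the same 27.2% and 26.0% (median log2 fold change -0.93). GINS1, a subunit of the replicative helicase, had a log2 fold change of -1.73 (adjusted p = 5.8e-07), TK1, thymidine kinase, -1.59, CDT1, the licensing factor, -1.08, and the helicase subunit MCM5 -1.20. Of the S phase genes, 20 were called lower and 3 higher in siCHD9siHic5, 3 lower and 4 higher in siBRMsiHic5, and 8 higher with 0 lower in siCHD9siNS. Of all tested genes 28.9% were lower and 23.7% higher in siCHD9siHic5, 24.6% and 24.4% in siBRMsiHic5, and 16.5% and 15.8% in siCHD9siNS, so the 8 of 45 stand near the share of all genes. There PCNA, the sliding clamp, had a log2 fold change of 0.84 (adjusted p = 1.76e-05). Relative to siHic5siNS, 33 of the 45 S phase genes were called higher and 0 lower in siBRMsiHic5 (25.2% and 24.2% of all tested genes). In siCHD9siHic5, 12 were called higher and 2 lower than in siHic5siNS (21.9% and 25.7% of all tested genes). The 12 of 45 stand near the share of all genes.

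The remaining lists were mixed in siHic5siNS with vehicle, where 27.2% of all tested genes were called lower and 26.0% higher. Of 16 anaphase-promoting complex genes, whose products run mitotic exit, 6 were called lower and 1 higher, with the subunits CDC23 (-0.86), ANAPC11 (-0.76) and ANAPC13 (-1.20) and the ubiquitin-conjugating enzyme UBE2S (-1.28) lower. Of 14 genes of the MuvB, DREAM and E2F regulators, 2 were lower and 4 higher, under and near the shares of all genes. Among them the MuvB subunit LIN9 was lower (-1.08) and the pocket protein RBL2, a DREAM subunit, higher (0.83). Of the atypical E2F repressors, E2F7 was higher (0.57) and E2F8 lower (-1.23). Of 6 G1 cyclins and kinases, 4 were lower and 0 higher. CCND1, cyclin D1, which starts G1 progression, had 335, 269 and 292 CPM in siHic5siNS and 1585, 1609.8 and 1391 CPM in siNSsiNS, without overlap (log2 fold change -2.36 ± 0.30, SE, adjusted p = 3.6e-07). CDK6 (-0.84), a partner kinase of the D cyclins, CCND2 (-0.94) and CCND3 (-0.54) were the other lower ones. Of 13 CDK inhibitors and p53 targets, 4 were lower and 3 higher, both near the shares of all genes. CDKN2B, the p15 inhibitor of CDK4 and CDK6, was higher (1.73, adjusted p = 1.38e-07). CDKN1B, the p27 inhibitor, was lower (-1.39), as was CDKN2D, the p19 inhibitor of CDK4 and CDK6 (-0.78). BTG2, an antiproliferative p53 target, was higher (2.41).

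**Figure D5:**
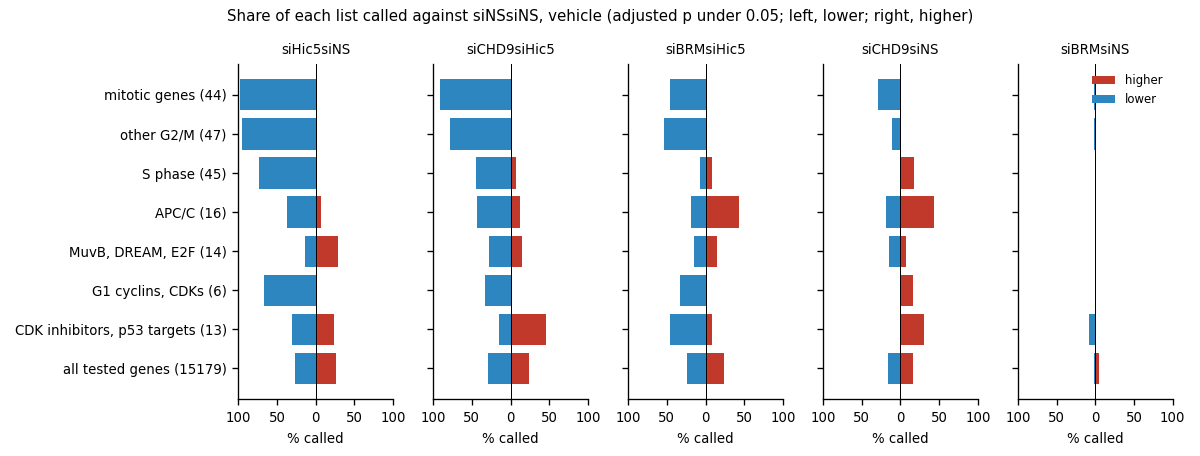
Percent of the genes in each cell cycle list called lower (bars to the left) or higher (bars to the right) against siNSsiNS with vehicle, for each siRNA pair, with the number of tested genes in parentheses and all 15179 tested genes in the bottom row. In siHic5siNS 43 of 44 mitotic genes and 45 of 47 other G2 and M genes are lower, and in siBRMsiNS the bars are near 0.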

How the data were processed

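The deposited table holds raw counts per gene, although its name speaks of scaled values: every value is a whole number and column totals differ. Per the submitters' processing notes, TopHat2 2.1.1, the GRCh38 genome and edgeR were used; which tool counted the reads, on which annotation and whether by strand is not given in the sources used here. Replicates are samples from different days. In R 4.3.3 with edgeR 4.0.16, genes above 1 CPM (upper-quartile scaled) in at least 3 libraries were tested with 12 group means (24 residual degrees of freedom) and p-values adjusted over all 15179 genes. The alternatives were a replicate block (a term for each dex and vehicle pair, 18 in all, with 12 residual degrees of freedom, or for the replicate number across siRNA pairs), TMM factors, no scaling factors, no filter, DESeq2 1.42.0 and leaving out each library; leaving out the 11 RNA28S5-rich libraries was added after seeing the data. The labels do not say that a replicate number marks a shared day; deviations of same-numbered dex and vehicle libraries from their group means correlated at 0.404 to 0.905 in all 6 siRNA pairs, so these were taken as pairs. No 2 libraries of a group agreed within sampling noise (chi-square per degree of freedom at least 9.41). Members and lists were chosen with earlier results of these data known. Named for each siRNA comparison were up to 8 called members each way with the largest change, 9 fixed members (CCNB1, CDK1, PLK1, AURKA, BIRC5, FOXM1, TOP2A, MKI67, BUB3), and, for siHic5siNS with vehicle, up to 4 called genes of each other cell cycle list with the smallest p; the dex responses of the 9 are given by their range, and PCNA and members named beyond these to show the spread within a role were chosen after their values were seen.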

Additional observations from a re-analysis of the deposited data

Results flagged for a closer look

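In 2 comparisons the effect of siHic5 on the mitotic genes differed with the second siRNA, by a test of the difference itself in edgeR with vehicle. With siBRM, 34 of 44 members differed from the change that siHic5 made alone (9.68% of all tested genes higher, 11.3% lower). With siCHD9, 23 of 44 differed (9.34% of all tested genes higher, 11.9% lower). Every called difference was toward a smaller fall or a rise, and both comparisons share the siHic5siNS and siNSsiNS libraries. Without the 11 libraries rich in RNA28S5 the count with siCHD9 was 25, in a fit for which the share of all tested genes was not computed. In that fit siBRMsiHic5 and siBRMsiNS had 1 library each, assumed to vary like the other groups, so no count is given with siBRM.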

How the results depend on the processing

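Among 4008 recomputed values of 296 named results, 3901 kept their side of the threshold, 84 were no longer called and 23 became called. Of values called in either fit, 0 reversed direction. Direction was not checked for values called in neither fit. Left-out libraries gave ranges of members called of 39 to 43 (siHic5siNS), 30 to 40 (siCHD9siHic5), 16 to 22 (siBRMsiHic5), 7 to 10 (siCHD9siNS) and 0 to 4 (siBRMsiNS) against siNSsiNS with vehicle. With dex they were 41 to 44, 32 to 42, 13 to 21, 2 to 7 and 0 to 3 in the same order. Relative to siHic5siNS they were 17 to 27 (siCHD9siHic5) and 36 to 39 (siBRMsiHic5). For the difference from siHic5 alone they were 13 to 26 (siCHD9) and 30 to 35 (siBRM). For every dex response and its difference they were 0 to 0 without pairing. The calls of the paired fit were not recomputed with a library left out. The pairing by replicate number held for dex and vehicle; across siRNA pairs it held in 5 of 12 comparisons (correlations of -0.223 to 0.664). With the replicate block the counts became 2 for siBRMsiNS with vehicle, 9 and 2 for the dex responses in siCHD9siNS and siBRMsiHic5, and 1 for the difference of the siCHD9siNS response, and no other count moved by over 1.5 times; where the pairing held across siRNA pairs, the calls it changed stand in the results, and it changed no other member's call. DESeq2 gave 2 members for siBRMsiNS with vehicle and 4 with dex, and no scaling factors gave 8 for siCHD9siNS with dex; the cause was not tested. Without the RNA28S5-rich libraries, 1 library was left in each siBRM group, assumed to vary like the other groups. No counts are given for those groups in that fit. No scaling moved the median of all genes by over 0.1. The members' median biological variation, 17.2% between replicates, limits what 3 libraries a group can show.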
